A study of Mus musculus with 19 samples.

Results

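Kinesins are the motor proteins encoded by the Kif genes, and 39 of the 47069 genes counted in this study were taken as the kinesin set. A gene was included when its Ensembl identifier belonged to a protein-coding gene of the GRCm38 mouse annotation whose symbol was Kif followed by a digit. The symbol alone chose the members, and no measured value did. The pattern also took in Kif1bp, which encodes a protein that binds kinesins and is not itself a motor, and it left out the minus-end directed kinesins, whose symbols begin with Kifc. By their known roles the members were placed in 5 classes, with 12 mitotic kinesins, 15 kinesins of axonal transport, 3 of microtubule regulation or signalling, 6 of cilia and Hedgehog signalling, and 3 others.

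The data are RNA-seq read counts from mouse embryos at E16.5, a stage when retinal ganglion cells (RGCs) send axons to the optic chiasm. FACS selected the retinal cells by their Sun1-GFP label. Ipsilateral RGCs (iRGCs), whose axons stay on their own side of the brain, came from Slc6a4-Cre; Sun1-GFP embryos, titled Sert by the submitters. Contralateral RGCs (cRGCs), whose axons cross the midline, came from Pou4f2-Cre; Sun1-GFP embryos, titled Brn3b, after the ventrotemporal region had been cut away. According to the paper, the birth of iRGCs starts later, so at this stage they were younger on average than cRGCs. This difference in cell age cannot be told apart from the population. Each population had 3 libraries, with 28193178, 29759011 and 30874653 reads on genes in iRGC replicates 1, 2 and 3 and 28274471, 30454674 and 33638083 in cRGC replicates 1, 2 and 3.

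Embryos of both populations carried the same reporter, a GFP-tagged nuclear envelope protein under the CAG promoter at Rosa26 that is silent until Cre removes a stop cassette. The labels give both populations the strain C57/DBA F1, the genotype WT, embryos of both sexes pooled, and name no treatment. The Slc6a4-Cre allele is the ET33 Sert-Cre transgene, and the Pou4f2-Cre allele is a knock-in at the Pou4f2 locus. Once Cre has acted, a cell and all its descendants keep the label, whichever genes they express later. The sources do not say how many embryos were pooled per library, so p-values measure the spread between these libraries. The submitters' library names carry 1 prefix in iRGCs and another in cRGCs, whose meaning is not given and which cannot be told apart from the population.

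Levels are given as read counts scaled to library size with edgeR's TMM factors (CPM), and levels of different kinesins are compared only per kilobase (kb) of exon. The log2 fold change (log2FC), given with its standard error (SE), is positive where iRGCs had more transcript than cRGCs. Tests used the two-sided quasi-likelihood F-test of edgeR, and p-values were adjusted (Benjamini-Hochberg) over the 15941 genes that passed the filter on low counts. A gene counted as higher or lower at an adjusted p-value under 0.1, and as a differentially expressed gene (DEG) when its log2FC was also above 1 in size. Of the 39 kinesins, 36 passed the filter. The other 3 were Kif12, with 0 reads in all 6 libraries, Kif2b, with 4 reads in cRGC replicate 1 and 0 elsewhere, and Kif28, with 3 and 11 reads in cRGC replicates 2 and 3 and 0 elsewhere. A count of 0 allows a level of up to 0.0927 to 0.115 CPM in these libraries, by counting error alone.

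Most kinesins walk along microtubules toward the plus end, which in an axon points away from the cell body, so they carry vesicles, mitochondria and cytoskeletal proteins outward. A separate set works in dividing cells, where they push spindle poles apart, move and condense chromosomes and organise the midzone at which the daughter cells separate. Postmitotic neurons such as RGCs depend on the first set throughout life, while retinal progenitors use the second at every division.

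The levels of the driver genes and of cell type markers were read first. Slc6a4, the serotonin transporter gene whose regulatory sequence drives Cre in the iRGC line, was at 2.06, 33.4 and 116 CPM in iRGC replicates 1, 2 and 3 and at 48.1, 35.4 and 30.5 CPM in cRGC replicates 1, 2 and 3. The populations overlapped, and iRGC replicate 1 was below every cRGC library. The log2FC of Slc6a4 was 0.41 (SE 0.929, adjusted p of 0.768 by edgeR, Benjamini-Hochberg). Pou4f2, a transcription factor of most RGCs, was at 74.7, 133 and 98.3 CPM in iRGCs and at 191, 196 and 293 CPM in cRGCs, with no overlap. The Cre knock-in lies at this locus in embryos of the cRGC line only, and its effect on the Pou4f2 count was not tested. Because of the low Slc6a4 level in iRGC replicate 1, results are also given without that library.

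Of 15 ganglion cell markers, 14 were lower in iRGCs, and Thy1 had a log2FC of -2.06 (SE 0.947) with an adjusted p of 0.121 (by edgeR, Benjamini-Hochberg). Over all tested genes, 23.1% were lower and 23.3% higher. The summed level of the ganglion cell markers was 3478, 4935 and 7316 CPM in iRGC replicates 1, 2 and 3 and 18750, 17183 and 20916 CPM in cRGC replicates 1, 2 and 3. By mean CPM over the 6 libraries, not corrected for length, the neurofilament gene Ina was first of them, and Tubb3 was above it in iRGC replicates 1 and 2. All 14 markers of retinal progenitors were higher in iRGCs, with summed levels of 8078, 7207 and 6287 CPM in iRGCs against 824, 1912 and 1289 CPM in cRGCs. By the same measure the first of them was Ccnd1, a cyclin that also belongs to the cell cycle. All 10 markers of neurogenic precursors were higher as well, at 1426, 1719 and 1315 CPM against 294, 506 and 464 CPM, with Hes6 first by that mean and Btg2 above it in iRGC replicates 1 and 2. No marker of these 3 lists was at 0 in any library, so both populations held ganglion cell and progenitor transcripts in unequal amounts. In bulk samples, fewer cells of a type and less RNA per cell cannot be told apart. Some markers also follow laterality in the paper, which names Pou4f1 and Isl2 as cRGC genes and reports Sncg as selective to cRGCs. It lists Lhx2, Sox2 and Sox9 as factors expressed in iRGCs. Differences in these genes are therefore not a measure of cell type alone.

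The kinesins divided by role. All 11 tested mitotic kinesins were higher in iRGCs, while 9 of 15 transport kinesins were lower and 2 were higher. Over all tested genes, 23.3% were higher and 23.1% were lower. Counted as DEGs, 11 of 11 mitotic kinesins were higher, where 12.1% of all tested genes were, and 6 of 15 transport kinesins were lower, where 11.0% were. The median log2FC was 2.48 for the mitotic class, with a range from 2.19 to 2.95, and -0.76 for the transport class, with a range from -2.59 to 0.93, beside -0.00307 for all tested genes. The -2.59 is that of Kif17, which did not pass the test and ranged from -3.84 to -2.01 with a library left out. The lowest transport kinesin that passed was Kif5a, at -1.74. Without iRGC replicate 1, 11 mitotic kinesins were still higher (median 2.42), and 10 transport kinesins were lower and 1 was higher (median -0.68). Taking all 5 classes, 16 kinesins were higher, 13 were lower and 7 did not pass the test, so that 29 of 36 differed where 46.4% of all tested genes did.

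**Figure D1:**
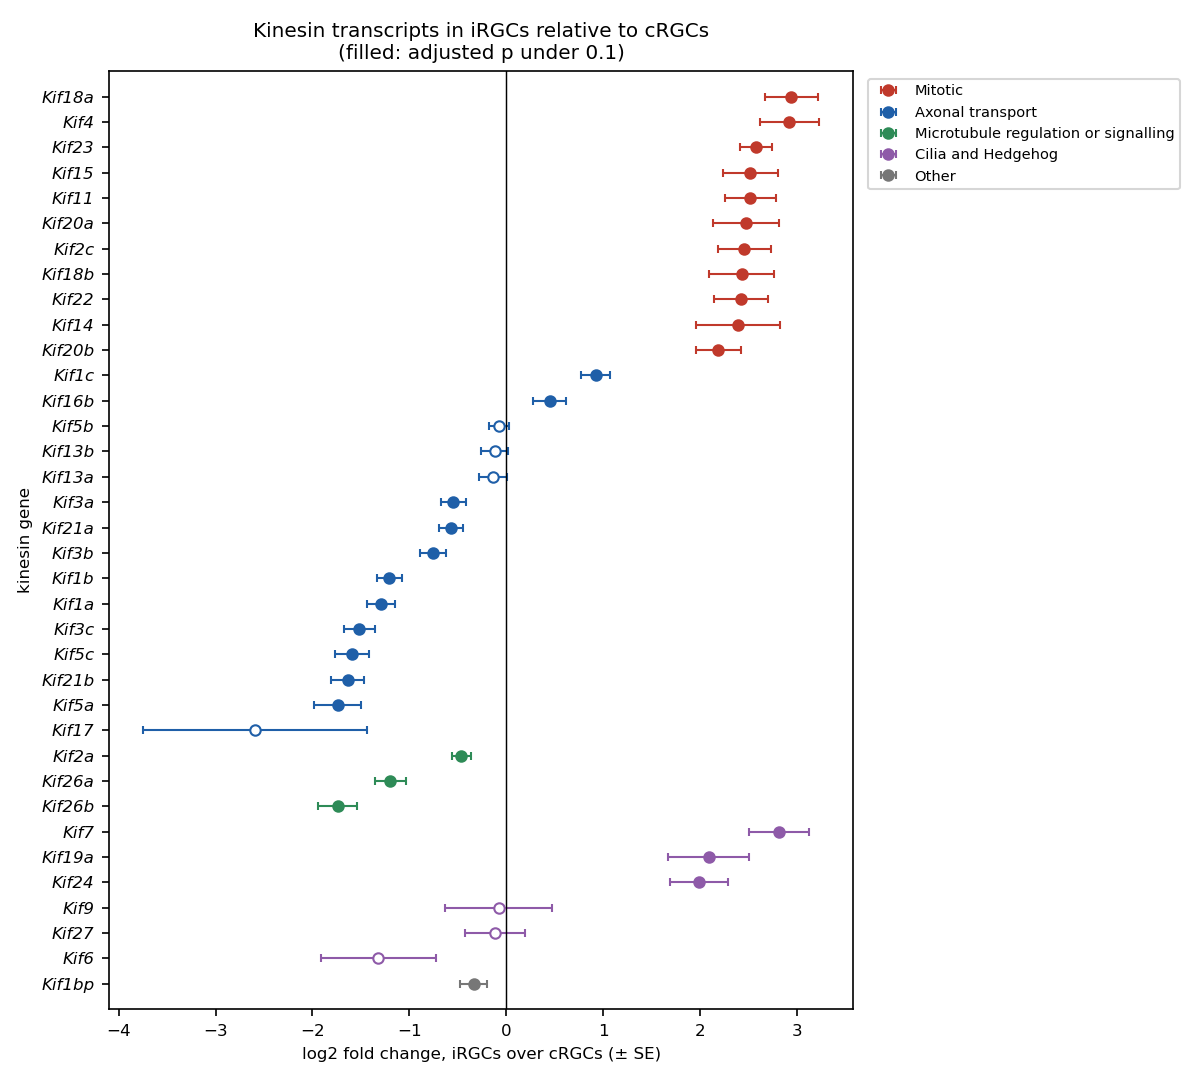
Log2 fold change of iRGCs over cRGCs for the 36 tested kinesins, with SE bars, coloured by class, filled where the adjusted p-value was under 0.1 and open where it was not. The 11 mitotic kinesins lie between 2.19 and 2.95, and the transport kinesins spread from -2.59 (Kif17, which did not pass) to 0.93.

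Replicate libraries did not overlap for most kinesins. In 16 of the 36, every iRGC library was above every cRGC library, and in 15 every iRGC library was below, against 27.1% and 28.2% of all tested genes. The 5 kinesins whose populations overlapped were Kif5b, Kif13a, Kif13b, Kif9 and Kif27.

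Kinesins together took a larger share of all gene reads in cRGCs than in iRGCs. The share was 0.494%, 0.462% and 0.533% in iRGC replicates 1, 2 and 3 and 0.801%, 0.730% and 0.709% in cRGC replicates 1, 2 and 3. Within the kinesin reads, the mitotic class made up 29.1%, 25.3% and 19.7% in iRGCs and 1.50%, 3.69% and 2.26% in cRGCs. The transport class made up 62.4%, 66.4% and 72.1% in iRGCs and 91.8%, 88.8% and 90.9% in cRGCs. Transport kinesins thus supplied most of the kinesin reads in all 6 libraries, iRGCs included.

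**Figure D2:**
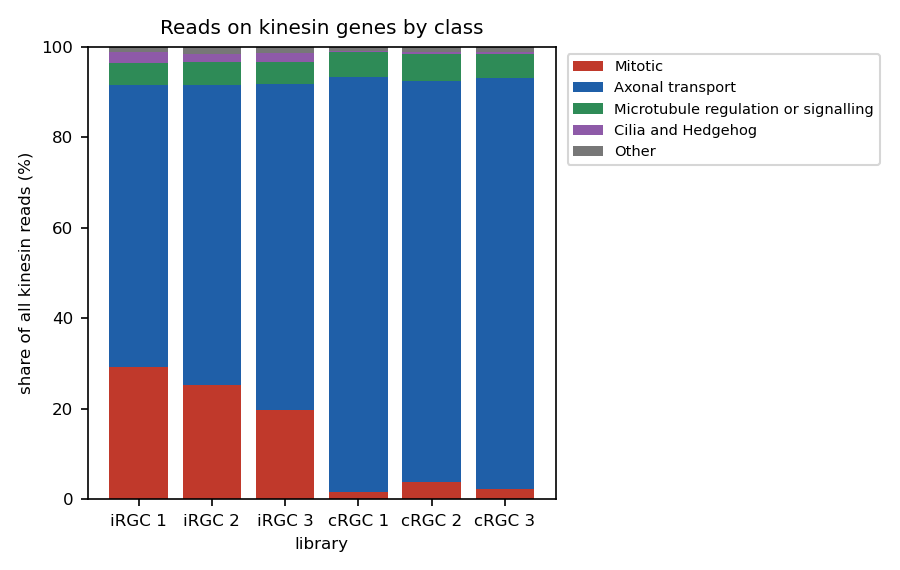
Share of all kinesin reads, in percent, that fell on each class in each of the 6 libraries, as stacked bars. The mitotic share is 19.7% to 29.1% in iRGC libraries and 1.50% to 3.69% in cRGC libraries.

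Among the mitotic kinesins, the spindle motors were the first group. Kif11 (ENSMUSG00000012443, chr19:37376403-37421859 in GRCm38), the motor that pushes spindle poles apart, was at 268, 216 and 208 CPM in iRGC replicates 1, 2 and 3 and at 25.7, 56.8 and 38.0 CPM in cRGC replicates 1, 2 and 3. The lowest iRGC library was well above the highest cRGC library, and the level was 5.74-fold higher in iRGCs, a log2FC of 2.52 (SE 0.263, adjusted p of 0.000242 by edgeR, Benjamini-Hochberg). Per kb, Kif11 was the most abundant mitotic kinesin in both populations, with means of 30.9 CPM per kb in iRGCs and 5.39 CPM per kb in cRGCs. Kif15, which acts beside Kif11 in the spindle, was at 149, 125 and 121 CPM in iRGCs and at 15.4, 34.9 and 18.4 CPM in cRGCs, with a log2FC of 2.52 (SE 0.286).

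The kinesins that act on chromosomes and on microtubule ends gave the same picture. Kif4, a motor of chromosome arms and of the spindle midzone, was at 139, 107 and 105 CPM in iRGCs and at 8.92, 22.9 and 14.4 CPM in cRGCs. Its log2FC was 2.93 (SE 0.309), but 15.1% of its exonic bases also lie in Pdzd11. Kif22, another motor that binds chromosome arms, was at 97.1, 105 and 95.0 CPM against 10.6, 25.8 and 18.8 CPM, a log2FC of 2.43 (SE 0.278).

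Kif2c does not walk but removes tubulin from microtubule ends at centromeres, and it was at 75.4, 76.4 and 64.5 CPM in iRGCs and at 8.84, 19.5 and 11.0 CPM in cRGCs. Kif18a (ENSMUSG00000027115, chr2:109280738-109341747), which limits the swing of chromosomes at the spindle equator, was at 86.6, 56.5 and 76.0 CPM against 6.92, 13.4 and 8.07 CPM. With a log2FC of 2.95 (SE 0.275), it had the largest increase in the class, though its SE overlapped that of Kif4. Kif18b, its relative at the tips of astral microtubules, was at 46.0, 35.8 and 37.8 CPM against 4.31, 11.5 and 6.26 CPM. The log2FCs of Kif2c and Kif18b were 2.46 (SE 0.275) and 2.43 (SE 0.336).

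The last mitotic group serves cytokinesis. Kif23 (ENSMUSG00000032254, chr9:61915905-61946774), a subunit of the centralspindlin complex that bundles the midzone, was at 140, 114 and 116 CPM in iRGCs and at 17.4, 24.9 and 19.4 CPM in cRGCs. It had the smallest adjusted p-value of the 36 kinesins, with a log2FC of 2.58 (SE 0.167, adjusted p of 0.000201 by edgeR, Benjamini-Hochberg). Kif20a, which carries the Aurora B kinase complex to the midzone, was at 121, 107 and 90.6 CPM against 10.8, 30.7 and 15.8 CPM. Its log2FC was 2.48 (SE 0.340), and 29.3% of its exonic bases also lie in Cdc23.

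Kif20b, a motor of late cytokinesis, was at 115, 83.5 and 68.5 CPM in iRGCs and at 16.3, 24.8 and 17.3 CPM in cRGCs. At 2.19 (SE 0.232), its log2FC was the smallest of the class. Kif14, which works with citron kinase at the midbody, was at 67.6, 49.9 and 39.3 CPM against 5.19, 17.6 and 6.94 CPM. It had the widest spread of the class, with a log2FC of 2.39 (SE 0.433) and the largest adjusted p of the 11 at 0.00236 (by edgeR, Benjamini-Hochberg). With a library left out, the log2FC of Kif14 was 2.08 to 3.12, the highest value being that without cRGC replicate 2.

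The mitotic kinesins were also ordered alike among the libraries of a population. In cRGCs, replicate 2 had the highest level and replicate 1 the lowest for 11 of the 11, while over all tested genes replicate 2 was highest for 33.2% and replicate 1 lowest for 38.4%. In iRGCs, replicate 1 was highest for 9 and replicate 3 lowest for 8, against 29.97% and 26.1% of all tested genes. Of the 14 progenitor markers, cRGC replicate 2 was highest for 12 and cRGC replicate 1 lowest for 14, and in iRGCs replicate 1 was highest for 8 and replicate 3 lowest for 8. Without cRGC replicate 2, the median log2FC of the mitotic class was 2.93.

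**Figure D3:**
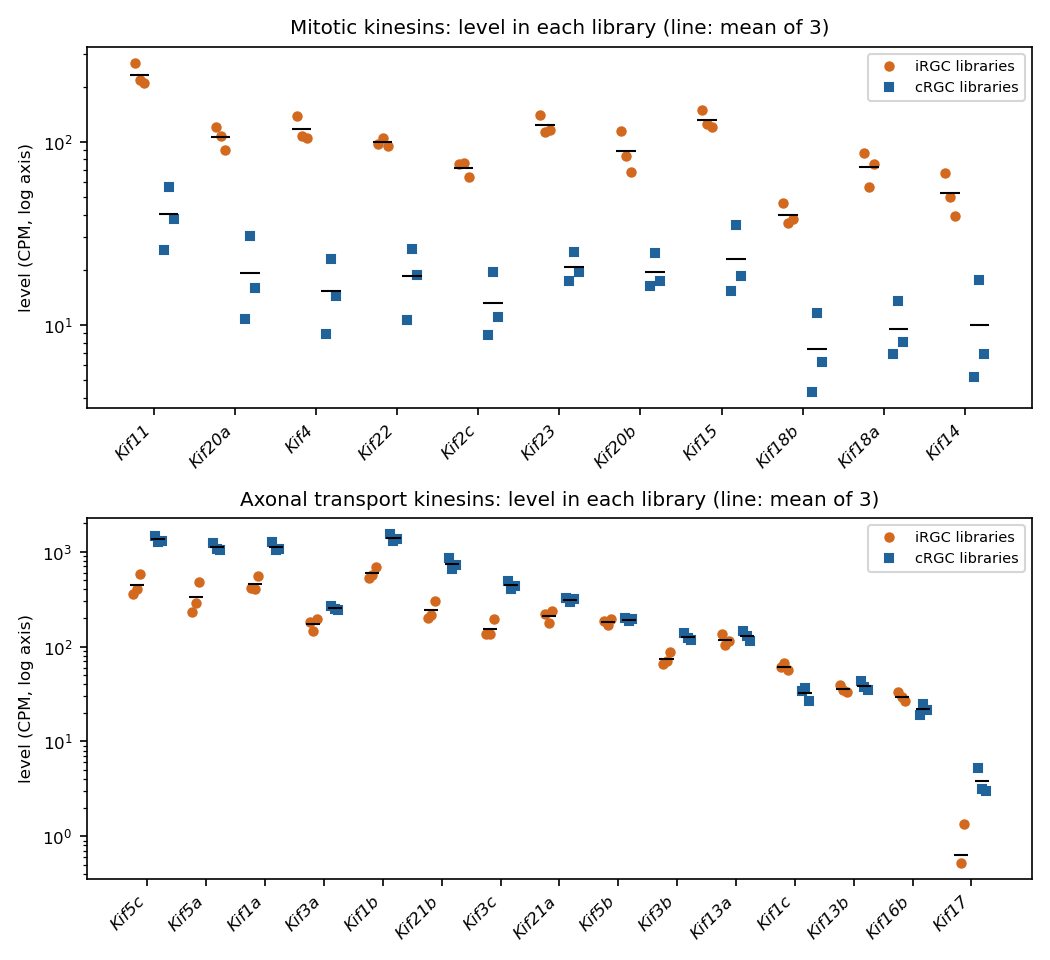
Level in CPM, on a log axis, of the mitotic kinesins (upper panel) and of the transport kinesins (lower panel) in each iRGC library (circles) and each cRGC library (squares), with a line at the mean of 3. The populations are apart for all 11 mitotic kinesins, and Kif5b, Kif13a and Kif13b overlap. The 0 of Kif17 in iRGC replicate 1 cannot be drawn on a log axis.

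Promoters of many genes of the late cell cycle hold an element called CHR, read by the DREAM complex and by its activating counterparts, often near a CCAAT box, to which NF-Y binds. RefSeq promoter windows of GRCm38.p6, from 250 bases before to 50 bases after a gene's RefSeq start, were matched to 31 of the 39 kinesins. No window was matched to Kif20a, Kif5a, Kif5b, Kif13b, Kif21b, Kif19a, Kif1bp or Kif28. The mitotic windows therefore lack Kif20a and include Kif2b, which did not pass the filter on low counts. Both strands were searched for TTTGAA as the CHR letters, which read TTCAAA on the other strand, and for CCAAT, which reads ATTGG there. A CHR match and a CCAAT match can share an end base at most. The CHR letters were in 9 of 11 mitotic windows (81.8%), in 1 of 13 windows of 11 transport genes (7.69%), the second of Kif1a, and in 17.9% of the 32851 windows of all genes. CCAAT was in 7 of 11 mitotic windows (63.6%), in 4 of 13 transport windows (30.8%), of Kif1b, Kif3a and Kif3b, and in 37.4% of all windows. Both sets of letters were in 6 of 11 mitotic windows, in 0 of 13 transport windows and in 6.95% of all windows.

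The 6 mitotic kinesins with both were Kif4, Kif11, Kif14, Kif18b, Kif22 and Kif23, and those without the CHR letters were Kif18a and Kif2b. Both sets of letters were also found outside the mitotic class, in the windows of Kif26b and Kif27. The E2F letters GGCGGGAA (TTCCCGCC on the other strand) were in 0 of the 11 mitotic windows, in 0 of the 13 transport windows and in 2.19% of all windows. A match describes the letters only, and no match says only that these letters were not in the window.

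The first base of the CHR letters was at -228 in Kif14 and at -103 in Kif2c, counted from the RefSeq start, and in the other 7 mitotic windows with the letters at least one match began within 20 bases of it. The RefSeq start lay inside the gene as the annotation of the counts gives it by 1505 bases in Kif14, by 3867 in Kif2c, by 4175 in Kif27, by 328 in Kif4, by 11816 in Kif17 and by 19471 in the second window of Kif1a. To show the letters near the start, the stretch from 160 bases before to 30 bases after the start is printed 5′ to 3′ for Kif11, Kif23, Kif4 and Kif18b, all higher in iRGCs, and for Kif5c, a transport kinesin that was lower. Capitals mark the CHR and CCAAT letters on either strand. The stretches are chr19:37376222-37376411 on the plus strand for Kif11, chr9:61946770-61946959 on the minus strand for Kif23, chrX:100625905-100626094 on the plus strand for Kif4, chr11:102925095-102925284 on the minus strand for Kif18b and chr2:49619126-49619315 on the plus strand for Kif5c.
Kif11: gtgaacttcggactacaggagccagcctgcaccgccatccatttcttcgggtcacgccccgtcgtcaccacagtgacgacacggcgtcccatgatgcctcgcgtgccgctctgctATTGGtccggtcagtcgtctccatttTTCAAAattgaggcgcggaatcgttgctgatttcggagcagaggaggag
Kif23: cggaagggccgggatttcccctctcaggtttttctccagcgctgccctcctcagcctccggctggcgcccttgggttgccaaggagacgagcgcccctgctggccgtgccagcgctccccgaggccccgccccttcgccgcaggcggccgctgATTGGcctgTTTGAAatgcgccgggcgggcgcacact
Kif4: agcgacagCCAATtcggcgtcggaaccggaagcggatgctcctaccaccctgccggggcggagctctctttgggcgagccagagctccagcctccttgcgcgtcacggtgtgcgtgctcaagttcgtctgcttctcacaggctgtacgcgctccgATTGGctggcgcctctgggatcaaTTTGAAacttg
Kif18b: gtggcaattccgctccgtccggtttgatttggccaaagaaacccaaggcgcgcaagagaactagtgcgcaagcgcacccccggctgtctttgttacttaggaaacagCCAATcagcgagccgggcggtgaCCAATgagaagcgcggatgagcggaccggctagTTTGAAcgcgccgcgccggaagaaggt
Kif5c: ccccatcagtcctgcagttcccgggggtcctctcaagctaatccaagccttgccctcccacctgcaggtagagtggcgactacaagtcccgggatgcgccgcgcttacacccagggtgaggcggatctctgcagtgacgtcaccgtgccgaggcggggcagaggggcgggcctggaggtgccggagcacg
In Kif11 the CHR letters begin 19 bases before the start, and in Kif23, Kif18b and Kif4 they begin at bases 3, 4 and 20 counted from the start as base 1. In each of these 4 the nearest CCAAT letters lie upstream of the CHR letters. The Kif5c stretch holds neither.

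By mean level per kb, the most abundant kinesins in both populations were transport kinesins, and 9 of the 15 were lower in iRGCs. Kif5a, Kif5b and Kif5c are the heavy chains of kinesin-1, the main motor of fast axonal transport. Kif5c (ENSMUSG00000026764, chr2:49619298-49774778) was at 357, 407 and 575 CPM in iRGC replicates 1, 2 and 3 and at 1471, 1268 and 1296 CPM in cRGC replicates 1, 2 and 3. It was 3.01-fold higher in cRGCs, a log2FC of -1.59 (SE 0.175), and had the highest mean per kb of the kinesins in either population, with 62.5 ± 16.0 CPM per kb in iRGCs and 188 ± 15.4 in cRGCs (SD, n = 3). Kif5a (ENSMUSG00000074657, chr10:127225696-127263348) was at 230, 291 and 479 CPM against 1225, 1064 and 1049 CPM, a log2FC of -1.74 (SE 0.242, adjusted p of 0.000674 by edgeR, Benjamini-Hochberg).

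Kif5b, the heavy chain found in most tissues, did not follow them. It was at 186, 168 and 194 CPM in iRGCs and at 198, 185 and 194 CPM in cRGCs, so that the populations overlapped. Its log2FC was -0.075 (SE 0.0997, adjusted p of 0.602 by edgeR, Benjamini-Hochberg).

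The share of each heavy chain in the Kif5 reads per kb, taken within each library, needs no scaling between libraries. Kif5a supplied 31.0%, 34.7% and 39.5% in iRGC replicates 1, 2 and 3 and 43.2%, 43.1% and 42.2% in cRGC replicates 1, 2 and 3, so every cRGC library was above every iRGC library. The exact permutation test of 3 libraries against 3, two-sided, gave p = 0.1, the smallest it can give (0.1 after Benjamini-Hochberg adjustment over 3 ratios). Kif5b supplied 17.9 ± 3.94% in iRGCs and 6.51 ± 0.354% in cRGCs, and Kif5c 47.1 ± 0.593% and 50.7 ± 0.346% (SD, n = 3). The order Kif5c, Kif5a, Kif5b was therefore common to both populations.

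The kinesin-3 motors differed among themselves. Kif1a (ENSMUSG00000014602, chr1:93015464-93101951), which carries precursors of synaptic vesicles, was at 412, 408 and 554 CPM in iRGCs and at 1255, 1043 and 1074 CPM in cRGCs, a log2FC of -1.29 (SE 0.147). Kif1b (ENSMUSG00000063077, chr4:149176319-149307693), whose products carry mitochondria and vesicle precursors, was at 533, 570 and 696 CPM against 1520, 1288 and 1349 CPM, a log2FC of -1.21 (SE 0.129). Both were lower in every iRGC library.

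Kif1c, a relative found in many cell types, went the other way, with 61.3, 66.7 and 56.3 CPM in iRGCs and 33.6, 36.5 and 26.9 CPM in cRGCs. Its log2FC was 0.93 (SE 0.150, adjusted p of 0.00140 by edgeR, Benjamini-Hochberg). Kif16b, a motor of early endosomes, was at 33.3, 29.5 and 26.4 CPM against 18.9, 24.8 and 21.6 CPM. Its log2FC was 0.45 (adjusted p of 0.0698 by edgeR, Benjamini-Hochberg). It did not pass without iRGC replicate 1, iRGC replicate 2, cRGC replicate 1 or cRGC replicate 3, with adjusted p from 0.129 to 0.234 (by edgeR, Benjamini-Hochberg), although the log2FC stayed between 0.35 and 0.45 in those fits. Kif13a and Kif13b, which move endosomal and membrane cargo, had log2FCs of -0.14 (SE 0.140) and -0.12 (SE 0.142) and overlapped between populations.

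Kinesin-2 is built from Kif3a paired with either Kif3b or Kif3c, and all 3 subunit genes were lower in iRGCs. Kif3a was at 182, 144 and 195 CPM in iRGCs and at 267, 248 and 245 CPM in cRGCs, a log2FC of -0.55 (SE 0.128). Kif3b was at 66.1, 70.9 and 87.0 CPM against 138, 123 and 117 CPM, a log2FC of -0.76 (SE 0.134). Kif3c, the subunit enriched in neurons, was at 136, 135 and 193 CPM against 490, 407 and 431 CPM, a log2FC of -1.52 (SE 0.160), and 35.3% of its exonic bases also lie in 1110002L01Rik.

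The ratio of Kif3c to Kif3b per kb was 1.57 ± 0.121 in iRGCs and 2.67 ± 0.147 in cRGCs (SD, n = 3), with no overlap and an exact permutation p of 0.1, the smallest possible. Kif17, a kinesin-2 motor that forms homodimers, was rare, with 0, 0.525 and 1.36 CPM in iRGCs and 5.27, 3.18 and 2.97 CPM in cRGCs. No iRGC library reached any cRGC library, but the adjusted p was 0.111, and 0.0401 without iRGC replicate 1 (by edgeR, Benjamini-Hochberg).

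Kif21a and Kif21b, kinesin-4 motors that restrain microtubule growth in neurons, were both lower in iRGCs. Kif21a was at 220, 175 and 234 CPM in iRGCs and at 322, 293 and 316 CPM in cRGCs, a log2FC of -0.57 (SE 0.126). Kif21b was at 202, 215 and 304 CPM against 857, 660 and 728 CPM, a log2FC of -1.64 (SE 0.175). The ratio of Kif21b to Kif21a per kb was 0.611 ± 0.107 in iRGCs and 1.28 ± 0.121 in cRGCs (SD, n = 3, exact permutation p = 0.1, the smallest possible). Per kb, Kif21a exceeded Kif21b in every iRGC library and Kif21b exceeded Kif21a in every cRGC library. The order in iRGCs depended on the division by exon length, since raw reads in iRGC replicates 1, 2 and 3 were 6829, 5673 and 7425 on Kif21a and 6286, 6970 and 9637 on Kif21b. Without that division the ratio was still lower in iRGCs, by a difference of -1.26 in place of -0.67.

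**Figure D4:**
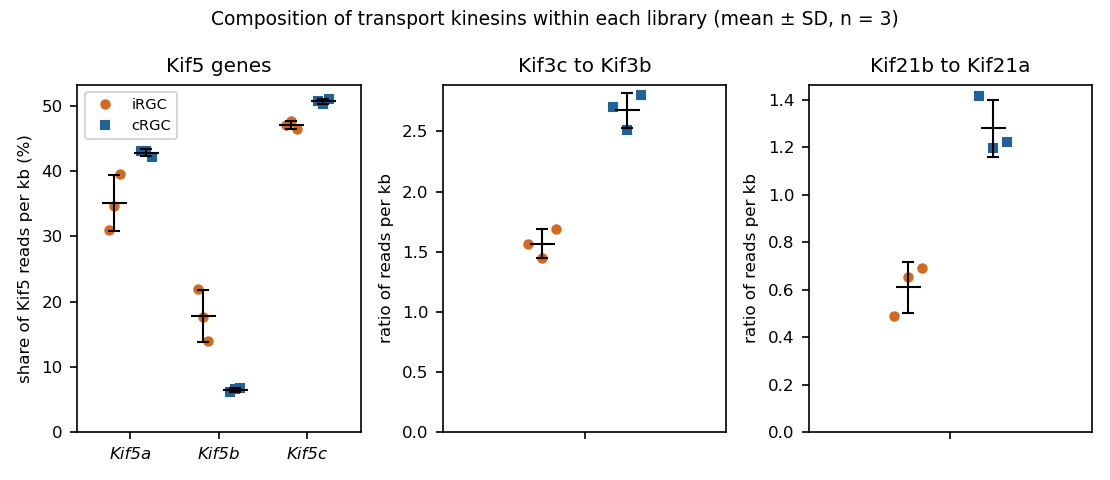
Composition of transport kinesins within each library, from reads per kb of exon, with circles for iRGCs, squares for cRGCs and bars for mean ± SD (n = 3). The left panel gives the share of each Kif5 gene in percent, the middle panel the ratio of Kif3c to Kif3b and the right panel the ratio of Kif21b to Kif21a, where all iRGC libraries lie below all cRGC libraries.

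In cRGCs, Kif5c and Kif5a (188 and 159 CPM per kb) were followed by Kif1a at 120 ± 12.3, Kif1b at 78.7 ± 6.85 and Kif3a at 70.6 ± 3.42 CPM per kb (SD, n = 3), and Kif1b and Kif3a differed by less than their SDs together. In iRGCs, Kif5c at 62.5 ± 16.0, Kif1a at 49.1 ± 8.92, Kif3a at 48.4 ± 7.32 and Kif5a at 47.7 ± 18.6 CPM per kb lay within each other's spread between libraries, although within every iRGC library Kif5c was above Kif5a. Between libraries, iRGC replicate 3 was highest for 11 of 15 transport kinesins, where it was highest for 41.0% of all tested genes. For the ganglion cell markers, iRGC replicate 3 was highest for 12 of 15. The lowest iRGC library was replicate 1 for 14 of 15 ganglion cell markers, against 45.2% of all tested genes. For the 15 transport kinesins, replicates 1, 2 and 3 were lowest for 6, 6 and 3, against 45.2%, 28.7% and 26.1% of all tested genes. In cRGCs, replicate 1 was highest for 13 of 15 transport kinesins and for 6 of 15 ganglion cell markers. It was highest for 34.1% of all tested genes.

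The 3 kinesins of microtubule regulation or signalling were all lower in iRGCs, where 23.1% of all tested genes were lower. Kif2a, a microtubule depolymerase that trims axon branches, was at 137, 125 and 141 CPM in iRGCs and at 181, 191 and 183 CPM in cRGCs, a log2FC of -0.46 (SE 0.0984), with 19.2% of its exonic bases shared with Dimt1. Kif2c, the mitotic kinesin of the same family, was higher, as given above. Kif26a, an atypical kinesin that binds microtubules and acts in growth factor signalling, was at 41.9, 50.4 and 57.3 CPM against 137, 106 and 101 CPM, a log2FC of -1.20 (SE 0.163). Its relative Kif26b was at 42.0, 34.2 and 57.8 CPM against 164, 159 and 124 CPM, a log2FC of -1.74 (SE 0.201), as large a decrease as that of Kif5a.

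Among the 6 kinesins of cilia and Hedgehog signalling, 3 were higher in iRGCs and 3 did not pass the test, where 23.3% of all tested genes were higher. Kif7, a regulator of the Gli transcription factors at the tip of the primary cilium, was at 17.1, 13.0 and 15.5 CPM in iRGCs and at 1.54, 2.69 and 2.23 CPM in cRGCs. It was 7.04-fold higher (log2FC 2.82, SE 0.308), within an SE of the largest mitotic increases, and 20.3% of its exonic bases also lie in Ticrr and 9330171B17Rik. Kif19a, which limits the length of cilia, was at 32.6, 27.2 and 50.5 CPM against 4.19, 14.0 and 7.62 CPM, a log2FC of 2.09 (SE 0.418). Kif24, a depolymerase that holds back cilium formation in cycling cells, was at 45.6, 27.5 and 23.7 CPM against 9.69, 8.73 and 5.91 CPM, a log2FC of 1.99 (SE 0.299).

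The other 3 of this class were rare. Kif27, a relative of Kif7, and Kif9, a kinesin of motile cilia, had log2FCs of -0.11 (SE 0.309) and -0.075 (SE 0.553). Kif6, also of motile cilia, had a log2FC of -1.32 (SE 0.592) with an adjusted p of 0.112 (by edgeR, Benjamini-Hochberg) at 2.97 ± 0.417 CPM in cRGCs (SD, n = 3), and every iRGC library was below every cRGC library. Kif1bp was at 54.3, 64.9 and 74.3 CPM in iRGCs and at 77.2, 79.0 and 87.9 CPM in cRGCs. The log2FC of Kif1bp was -0.34 (SE 0.139), and -0.46 to -0.23 with a library left out. Its adjusted p was 0.0884, and 0.211 without iRGC replicate 1 (by edgeR, Benjamini-Hochberg), and 10.1% of its exonic bases are shared with 4933428P19Rik.

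The genes that work with the kinesins were read from 5 lists. Of 23 kinesin light chains and cargo adaptors, 16 were lower in iRGCs and 3 were higher, with a median log2FC of -1.19, where 23.1% of all tested genes were lower and 23.3% higher. Klc1, the main light chain of kinesin-1 in neurons, averaged 559 ± 173 CPM in iRGCs against 1568 ± 87.5 CPM in cRGCs (SD, n = 3), a log2FC of -1.49 (SE 0.202). The adaptors Mapk8ip3 and Mapk8ip1, which link cargo and JNK signalling to kinesin-1, had log2FCs of -0.94 (SE 0.122) and -1.30 (SE 0.183). The 3 that were higher were Klc3, Trak2 and Ppfia1, with log2FCs of 1.56 (SE 0.257), 0.35 (SE 0.129) and 0.44 (SE 0.119), and they were named after their values were seen.

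Cytoplasmic dynein, with its activator dynactin, drives transport back to the cell body. Of 24 tested dynein and dynactin genes, 18 (75%) were lower in iRGCs and 2 were higher, with a median log2FC of -0.56, where 23.1% of all tested genes were lower and 23.3% higher. As DEGs, 1 of the 24 was lower and 1 higher, where 11.0% of all tested genes were lower and 12.1% higher. Dync1h1, the heavy chain that holds the motor, averaged 1104 ± 49.8 CPM in iRGCs against 1951 ± 153 CPM in cRGCs (SD, n = 3), a log2FC of -0.82 (SE 0.102). Pafah1b1, the dynein regulator Lis1, and Dctn1, the largest dynactin subunit, had log2FCs of -0.59 (SE 0.100) and -0.88 (SE 0.136). Of these 18, the single DEG was Dync1i1, an intermediate chain, with a log2FC of -2.31 (SE 0.683) at 2.94 ± 0.840 CPM in cRGCs (SD, n = 3). Dync1i1 and the 2 that were higher were named after their values were seen. The higher ones were Nde1 (log2FC 2.21, SE 0.303), which also serves dynein in mitosis, and Dynlt3 (0.78, SE 0.166).

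Of the 3 minus-end kinesins, 1 was higher in iRGCs and 2 were lower. The shares over all tested genes were 23.3% higher and 23.1% lower. Kifc1, a motor that focuses spindle poles, had a log2FC of 2.22 (SE 0.267), but it has a near-identical copy, Kifc5b, so its count is uncertain. Kifc2, which is enriched in neurons, had a log2FC of -1.75 (SE 0.247), and Kifc3 one of -0.59 (SE 0.225, adjusted p of 0.0657 by edgeR, Benjamini-Hochberg). Of these 2 lower genes, 1 was lower when iRGC replicate 1, iRGC replicate 2 or any cRGC library was left out.

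Partners of mitotic kinesins and other readouts of the cell cycle followed the mitotic class. All 25 partners were higher in iRGCs, with a median log2FC of 2.45, where 23.3% of all tested genes were higher. Tpx2, which activates spindle assembly, averaged 260 ± 15.2 CPM in iRGCs against 48.9 ± 18.8 CPM in cRGCs (SD, n = 3), a log2FC of 2.41 (SE 0.251). Racgap1, the partner of Kif23 in centralspindlin, and Cenpe, a kinesin of the kinetochore whose symbol lies outside the Kif pattern, had log2FCs of 1.87 (SE 0.166) and 2.64 (SE 0.338). All 12 cell cycle readouts were higher too, with a median of 2.39. Among them, Top2a, Mki67 and the replication gene Mcm6 had log2FCs of 2.57 (SE 0.335), 2.58 (SE 0.318) and 1.89 (SE 0.153).

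Summed over its members, the mitotic class was at 1304, 1076 and 1022 CPM in iRGC replicates 1, 2 and 3 and at 131, 283 and 174 CPM in cRGC replicates 1, 2 and 3. The transport class summed to 2795, 2820 and 3742 CPM in iRGCs and to 7988, 6813 and 6997 CPM in cRGCs. The mitotic and progenitor sums were both highest in replicate 1 among iRGCs and in replicate 2 among cRGCs. The transport and ganglion cell sums were both highest in replicate 3 among iRGCs, but among cRGCs the transport sum was highest in replicate 1 and the ganglion cell sum in replicate 3. The part of the progenitor, precursor and ganglion cell transcripts in the kinesin differences was not tested.

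**Figure D5:**
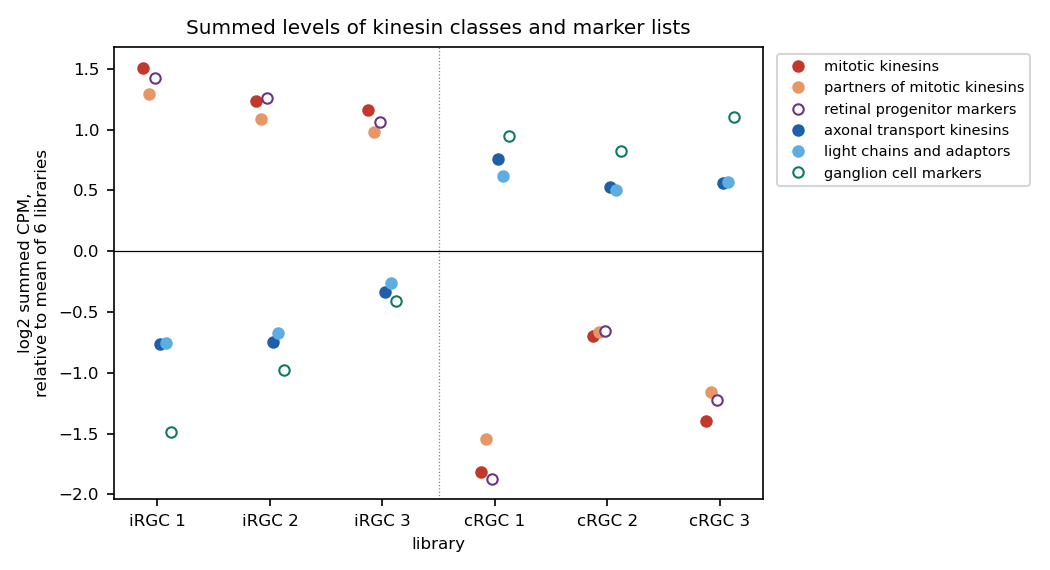
Summed CPM of 4 gene lists and of the progenitor and ganglion cell markers in each of the 6 libraries, as log2 relative to the mean of the 6. Mitotic kinesins and progenitor markers lie above 0 in the iRGC libraries and below 0 in the cRGC libraries, and transport kinesins and ganglion cell markers the reverse.

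Markers of other cells of the eye also moved with the populations. Of 8 amacrine and horizontal cell markers, 6 were higher in iRGCs, with sums of 387, 314 and 437 CPM in iRGC replicates 1, 2 and 3 against 160, 196 and 131 CPM in cRGC replicates 1, 2 and 3. Over all tested genes, 23.3% were higher and 23.1% lower. By mean CPM over the 6 libraries, Tfap2b was first, and in cRGC replicates 1 and 3 Gad2 was above it. Of 5 tested photoreceptor precursor markers, 4 were higher and 1, Rxrg, was lower, with sums of 799.9, 637 and 619.9 CPM against 168, 252 and 204 CPM, and Otx2 was first by that mean. All 5 tested of 8 endothelial markers were higher, with sums of 443, 579.9 and 433 CPM against 87.2, 108 and 70.3 CPM, most of it from Kdr. The populations overlapped for Pecam1 and Esam. Cdh5 was at 15.2, 81.3 and 0.158 CPM in iRGC replicates 1, 2 and 3 and at 0 in all 3 cRGC libraries, and Pecam1 was at 9.65, 53.0 and 0.284 CPM in iRGCs, so that iRGC replicate 3 held little of either. Kdr did not follow Cdh5 and Pecam1, at 366, 320 and 418 CPM in iRGCs and 83.7, 103 and 67.6 CPM in cRGCs. The endothelial sum is therefore mostly a reading of Kdr.

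Of 3 tested mural cell markers, Rgs5 and Pdgfrb were higher, with sums of 19.2, 157 and 23.7 CPM against 3.73, 4.45 and 3.74 CPM. For this list and those that follow, the shares over all tested genes were 23.3% higher and 23.1% lower. Rgs5 was first by mean CPM over the 6 libraries through iRGC replicate 2, at 93.8 CPM, and Pdgfrb was above it in the other 5. Kcnj8 and Acta2 were at 0 in all cRGC libraries. All 4 tested erythroid markers were higher, with sums of 12.2, 92.7 and 15.2 CPM against 0, 5.11 and 0.258 CPM and Hbb-bs first by that mean, and Alas2 was at 0 in all cRGC libraries. For microglia, 3 of 5 tested markers (Csf1r, C1qa and C1qb) were higher, with sums of 13.1, 21.2 and 15.8 CPM against 0.654, 4.18 and 1.45 CPM and Csf1r first by that mean. The 4 tested pigment epithelium markers did not pass, the smallest adjusted p being 0.118 for Dct (by edgeR, Benjamini-Hochberg), with sums of 2.03, 7.63 and 3.50 CPM against 1.69, 4.04 and 2.58 CPM. Mitf was first by that mean but at 0 in iRGC replicate 1, and Rpe65 was at 0 in all cRGC libraries. The mural and erythroid sums were highest in iRGC replicate 2. The part of these cells in the kinesin differences was not tested.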

How the data were processed

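RNA-seq libraries of sorted retinal cells were analysed, 3 of iRGCs and 3 of cRGCs, grouped by their titles, and the 13 ATAC-seq samples of the series were not analysed here. The authors aligned 50-base reads of polyA RNA to mm10 with HISAT2 2.1.0, counted them on Ensembl genes of GRCm38 with HTSeq 0.11.1 and deposited raw counts per gene, without normalization, in 1 table per library. The strand setting of the counting is not given in the sources used here, so counts of genes that overlap another gene are uncertain. Tallies without a gene were left out of library totals and were 8.21% to 17.1% of alignments for no feature, 0.630% to 0.658% for ambiguous reads and 26.4% to 33.4% for alignments that were not unique. The GENCODE M21 annotation of GRCm38 gave symbols to 46488 of the 47069 genes, and their exon lengths.

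The tests ran in edgeR 4.0.16 under R 4.3.3, with filterByExpr, TMM, glmQLFit and glmQLFTest and without a block. The iRGC libraries had TMM factors of 1.03 to 1.10 and the cRGC libraries of 0.921 to 0.952, and the biological coefficient of variation was 36.3%. Dividing the absolute log2 fold change by the root of its F value gave the SE. On data simulated from the 15941 tested genes with 200 genes changed in iRGCs against cRGCs, the test recovered 71% of the 2-fold and 96% of the 4-fold changes and called 0.165% of the unchanged genes. The 200 genes were drawn only from those above a minimum mean CPM, so the recovery does not cover rare genes. They were also a far smaller share of the genes than was called in the data. No 2 libraries were alike within sampling noise. Floors for a count of 0 used 3 counts.

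Values in every library are given for the 29 kinesins past the threshold, each with at least 10 CPM in 1 population, and for Kif5b and Kif17, which were chosen after their values were seen. In each pathway list the 3 genes past the threshold with the highest mean CPM are named. The kinesin set, its classes, the gene lists and the tests were chosen with earlier results of these data known. 1 marker gene of the lists is not reported here. The alternatives were DESeq2's size factors, upper quartile factors, DESeq2 1.42.0, limma 3.58.1 voom, no filter, a minimum of 10 counts per library, leaving out 1 library at a time, a block for the replicate number, a threshold of 0.05, the DEG threshold, ratios of counts without length and, added after seeing the data, library totals without scaling factors. Plots were made in Python 3.11.15 with matplotlib 3.10.9.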

Additional observations from a re-analysis of the deposited data

How the results depend on the processing

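Of the 29 kinesins past the threshold, 27 kept their call and direction under all 14 alternatives run for them, the 11 mitotic ones included. Kif16b lost its call with no filter (adjusted p = 0.115), under the block (0.122) and without iRGC replicate 1, iRGC replicate 2, cRGC replicate 1 or cRGC replicate 3 (0.129 to 0.234), and Kif1bp with no filter (0.106), with library totals (0.429) and without iRGC replicate 1, iRGC replicate 2, cRGC replicate 2 or cRGC replicate 3 (0.142 to 0.231; edgeR with Benjamini-Hochberg adjustment). Kif17 passed with DESeq2 (0.0293), limma voom (0.0418), no filter (0.0881) and without iRGC replicate 1 or 3 (0.0401 and 0.0533), and Kif6 with DESeq2 (0.0458), limma voom (0.0942) and at least 10 counts in every library (0.0285). The number of transport kinesins that were higher was 2, but 1 at an adjusted p under 0.05 or with no filter, 0 as DEGs, and 1 to 2 with a library left out. With the DEG threshold, 8 kinesins were lower in place of 13, 1 light chain or adaptor gene was higher in place of 3, 1 dynein or dynactin gene was higher in place of 2 and 1 lower in place of 18, and over all tested genes 1930 were higher and 1758 lower in place of 3707 and 3688. Of the minus-end kinesins, 2 were lower, but 1 at an adjusted p under 0.05, as a DEG, with no filter, with library totals and under the block, and 1 to 2 with a library left out. The median log2 fold change with a library left out was 2.23 to 2.93 for mitotic and -0.89 to -0.68 for transport kinesins. Library totals without scaling factors, chosen after seeing the data, moved the median of all tested genes to 0.20 and the split of calls from 3707 higher and 3688 lower to 5100 and 2842 (64.2% higher in place of 50.1%). Transport kinesins remained at 2 higher and 9 lower, with a median of -0.55, and genes that had not passed changed sign: Kif5b 0.13, Kif13a 0.072, Kif13b 0.090, Kif27 0.10 and Kif9 0.13. With a library left out, the log2 fold change of Kif27 was -0.22 to 0.086, above 0 without cRGC replicate 3, and that of Kif9 was -0.21 to 0.021, above 0 without iRGC replicate 3 or cRGC replicate 2. With a library left out, the difference in the Kif5a share was -9.97 to -5.69 percentage points, in the ratio of Kif3c to Kif3b -1.19 to -1.04 and of Kif21b to Kif21a -0.71 to -0.60. From raw counts without length, these ratios differed by -1.45 in place of -1.11 and by -1.26 in place of -0.67. Where a value moved, the cause was not tested.

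Same-numbered libraries of the populations did not deviate together (r = -0.0121, -0.0237 and -0.0550 across genes). With 3 libraries per population, these values cannot show whether same-numbered libraries were prepared together. With the replicate number as a block, 11 mitotic kinesins were higher, 1 transport kinesin was higher and 9 were lower, with medians of 2.58 and -0.76, and over all tested genes 3316 were higher and 3435 lower.

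With 3 libraries per population and a biological coefficient of variation of 36.3%, precision was limited, and detection at the level of rare kinesins such as Kif6, Kif9 and Kif17 was not simulated. Kif20a, Kif4, Kif3c, Kif2a, Kif7 and Kif1bp each share over 10% of their exonic bases with another gene, and the counting's strand setting is not given in the sources used here. Exact permutation tests of 3 libraries against 3 cannot go below 0.1, nor below 0.2 with a library left out.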

Other observations

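Genes related to kinesins by name but outside the kinesin set, Kifc5b being protein-coding and the others not, were also read, chosen after their values were seen. The processed pseudogenes Kif4-ps, Kif22-ps and Kifc5c-ps had 0 reads in all 6 libraries. Kif16bos, antisense to Kif16b, had 10 reads in all, 6 of them in iRGC replicate 3. Kifc5b, the near-identical copy of the spindle motor gene Kifc1, had 443, 519 and 336 reads in iRGC replicates 1, 2 and 3 and 23, 133 and 147 reads in cRGC replicates 1, 2 and 3, with no overlap between the populations. Reads that match Kifc1 and Kifc5b equally well cannot be assigned by a count of unique alignments, so the split between the 2 genes is uncertain.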
